A study of Mus musculus with 6 samples.

Results

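MHC class II molecules and their master regulator were read at the RNA level in lymphatic endothelial cells of mouse melanomas. The genes described are listed by symbol: Ciita, the chain genes H2-Aa, H2-Ab1 and H2-Eb1, the invariant chain gene Cd74, and the pair H2-DMa and H2-DMb1. All 7 were found, among 13454 genes with values. They were chosen by their CPM in these same 6 libraries, which an earlier reading had found lower in the knockout, so their difference between the genotypes is described here and not tested as a finding.

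B16-OVA-VEGFC, a lymphangiogenic melanoma line, was grown in mice with a lymphatic-specific loss of Ch25h (the knockout, labelled Ch25h KO, 3 libraries) or in littermates (the control, labelled WT, 3 libraries). Values given as 3 in a row are libraries 1, 2 and 3 of a genotype. Tumours were digested, and CD45-CD31+GP38+ cells were sorted for SMART-Seq v4 cDNA. The sources used here name neither the driver of the deletion, nor the age, sex, strain or pooling of the mice, nor the time of harvest. Nothing says that replicate libraries are separate animals, so all spreads and p-values refer to the libraries and may be technical.

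Class II molecules are heterodimers of an alpha and a beta chain that present peptides from endocytosed proteins to CD4+ T cells. The invariant chain, made by Cd74, guards the groove until H2-DM exchanges its remnant for a peptide. CIITA, the product of Ciita, does not bind DNA itself. It is recruited to the S, X and Y boxes of class II promoters by the RFX complex, CREB and NF-Y, and its own gene can be induced in endothelium by interferon gamma, with IRF1 among the factors that act on it. Lymphatic endothelial cells are known to carry class II and to influence CD4+ T cells.

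The promoters of 4 of the 7 genes were at hand (RefSeq, GRCm38.p6), each from 250 bases before to 50 after an annotated start, and H2-DMa had 2 such windows. They are shown because the 7 genes moved together and this is where CIITA is recruited. The search looked for AACNGATG, the right part of the X box, for TGACGTCA, the cyclic AMP response element to which CREB binds, and for ATTGG, the core of the Y box. Capitals mark an X box core or the response element together with an ATTGG that follows it on the same strand after 10 to 40 bases. H2-DMb2, the close neighbour of H2-DMb1, is added for comparison. All sequences are on chromosome 17 of GRCm38.p6, written in the direction of transcription.
H2-Eb1, chr17:34305617-34305916, plus strand: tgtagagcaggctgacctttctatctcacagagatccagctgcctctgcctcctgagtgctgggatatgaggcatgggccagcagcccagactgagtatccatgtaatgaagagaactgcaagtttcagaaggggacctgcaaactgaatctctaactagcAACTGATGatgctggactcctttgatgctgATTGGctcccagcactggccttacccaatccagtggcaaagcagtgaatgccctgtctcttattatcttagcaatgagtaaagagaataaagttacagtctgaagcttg
H2-DMb1, chr17:34152941-34153240, plus strand: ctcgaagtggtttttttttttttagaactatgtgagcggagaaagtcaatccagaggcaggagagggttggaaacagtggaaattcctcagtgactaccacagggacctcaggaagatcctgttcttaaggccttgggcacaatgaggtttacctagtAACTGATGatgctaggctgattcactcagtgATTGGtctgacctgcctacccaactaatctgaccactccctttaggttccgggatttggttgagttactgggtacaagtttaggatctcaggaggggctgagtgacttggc
H2-DMb2, chr17:34144999-34145298, plus strand: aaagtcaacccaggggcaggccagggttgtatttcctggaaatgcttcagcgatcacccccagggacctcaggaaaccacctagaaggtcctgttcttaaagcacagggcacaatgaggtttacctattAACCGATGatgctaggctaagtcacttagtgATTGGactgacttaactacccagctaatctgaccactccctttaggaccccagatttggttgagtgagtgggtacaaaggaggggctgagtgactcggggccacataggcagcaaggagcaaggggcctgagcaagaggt
H2-Aa, chr17:34287774-34288073, minus strand: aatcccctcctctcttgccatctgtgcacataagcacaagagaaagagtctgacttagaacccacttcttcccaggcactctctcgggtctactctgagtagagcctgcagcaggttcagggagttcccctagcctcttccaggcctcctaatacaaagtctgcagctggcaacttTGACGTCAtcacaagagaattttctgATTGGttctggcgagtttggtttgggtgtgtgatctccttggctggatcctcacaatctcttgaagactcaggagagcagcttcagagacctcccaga

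In H2-Eb1 the X box core began at position -89 from the annotated start and in H2-DMb1 at -92, with 22 and 23 bases between it and ATTGG. H2-DMb2 had the same arrangement from -121, with 23 bases between. H2-Aa held TGACGTCA at -74 and ATTGG 18 bases after it. Neither pair was found in the 2 windows of H2-DMa, chr17:34122582-34122881 and chr17:34125268-34125567. The GENCODE M21 model of H2-DMa runs from 34119541 to 34139101 and shares exonic sequence with Brd2. Sequence at any other start of H2-DMa was not searched, so nothing is said about its promoter as a whole. Over all 32851 promoter windows, 2.32% held AACNGATG and 1.79% TGACGTCA on either strand, and 37.4% held ATTGG. The X box core followed by ATTGG on the sense strand was in 7 windows, 0.0213%, which belonged to H2-Eb1, H2-DMb1, H2-DMb2, H2-Eb2 and 3 genes outside the MHC class II family. TGACGTCA followed by ATTGG was in 33 windows (0.1%). The letters were chosen with these promoters in view, so the shares describe the windows and are no test.

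The sorted cells carried the RNA of lymphatic endothelium. Lyve1, a hyaluronan receptor of lymphatic vessels, stood between 2280 and 3794 CPM and the lymphatic master regulator Prox1 between 234 and 558 CPM. Of the blood endothelial markers, Flt1 was at 0.353 to 4.74 CPM, Emcn at 14.3 to 42.5 CPM and Plvap at 1090 to 2519 CPM. CPM here are the deposited values, reads relative to library size and scaled between libraries. Recovered reads per library ran from 36556824 to 46165273. Ch25h, the targeted gene, stood at 82.9, 88.8 and 106 CPM across the controls, against 0, 0.0232 and 2.95 CPM across the knockouts (-5.87 ± 0.47 SE in log2; limma, adjusted p = 0.00365, not called by edgeR or DESeq2, with adjusted p = 0.839 and 0.208). Its exons overlap Gm26902 on the other strand. It was the 1 gene of 11980 averaging 1 CPM or more that limma called, and it was not called without WT library 1.

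H2-Aa and H2-Ab1 encode the alpha and beta chains of the I-A molecule. H2-Aa was at 143, 81.6 and 607 CPM across the controls, against 47.2, 81.2 and 9 CPM across the knockouts. WT library 3 stood far above the other 5 and Ch25h KO library 3 far below them, and the groups were kept apart by WT library 2 lying 0.535% above Ch25h KO library 2. Those values rest on 3424 and 3498 reads, whose Poisson intervals (exact, 95%) run from 78.9 to 84.4 and from 78.5 to 83.9 CPM, so at this depth the 2 libraries could not be told apart. Control and knockout means were 277 ± 287 and 45.8 ± 36.1 CPM (SD, n = 3 each), and the log2 fold change was -2.50 ± 0.82 (SE) on log2(CPM + 1).

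H2-Ab1 was at 338, 232 and 1152 CPM across the controls, against 112, 187 and 22.1 CPM across the knockouts. The lowest WT value lay 24.2% above the highest knockout value. Its log2 fold change was -2.51 ± 0.75 (SE). H2-Eb1, the beta chain of the I-E molecule, was at 142, 97.2 and 600 CPM across the controls, against 51.5, 79.8 and 11.7 CPM across the knockouts, in the same library order, and its log2 fold change was -2.43 ± 0.74 (SE). It followed H2-Aa closely in level, with a ratio of H2-Eb1 to H2-Aa between 0.983 and 1.3 in all 6 libraries. In bulk samples, fewer class II-positive cells and less class II RNA per cell cannot be told apart.

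Cd74 was the most abundant of the 7 genes, also per kilobase of exon. It was at 792, 535 and 3253 CPM across the controls, against 237, 495 and 57.2 CPM across the knockouts. The span from the lowest to the highest library was 56.9-fold, and WT library 2 exceeded Ch25h KO library 2 by 8.03%. Control and knockout means were 1527 ± 1501 and 263 ± 220 CPM (SD, n = 3 each), and the log2 fold change was -2.55 ± 0.79 (SE).

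H2-DMa and H2-DMb1 encode the chains of H2-DM, the peptide exchanger of the endosome. H2-DMa was at 48.6, 23.7 and 143 CPM across the controls, against 13.6, 23.4 and 4.46 CPM across the knockouts. As for H2-Aa, the groups all but touched, with the lowest WT value 1.28% above the highest knockout value. H2-DMa shares exonic sequence with Brd2 on the other strand, and the library kit does not mark strand. H2-DMb1 was at 49.2, 34 and 163 CPM across the controls, against 17.7, 27.1 and 1.49 CPM across the knockouts. The last value is 59 reads (exact 95% Poisson interval 44.9 to 76.1) and made the widest span among the 7 genes, 110-fold. Log2 fold changes were -2.17 ± 0.65 (SE) for H2-DMa and -2.60 ± 0.84 (SE) for H2-DMb1. How the authors' counting shared reads between H2-DMb1 and its near copy H2-DMb2 is not stated in those sources, so both are uncertain.

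Ciita was at 23.3, 22.7 and 105 CPM across the controls, against 8.58, 18 and 3 CPM across the knockouts. Again WT library 3 was the highest and Ch25h KO library 3 the lowest, and WT libraries 1 and 2 were nearly level. Control and knockout means were 50.4 ± 47.5 and 9.86 ± 7.58 CPM (SD, n = 3 each), and the log2 fold change was -2.13 ± 0.65 (SE). Ciita lies on chromosome 16 from 10480059 to 10528418 (GENCODE M21, mm10, plus strand) and overlaps exons of Dexi on the other strand.

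**Figure D1:**
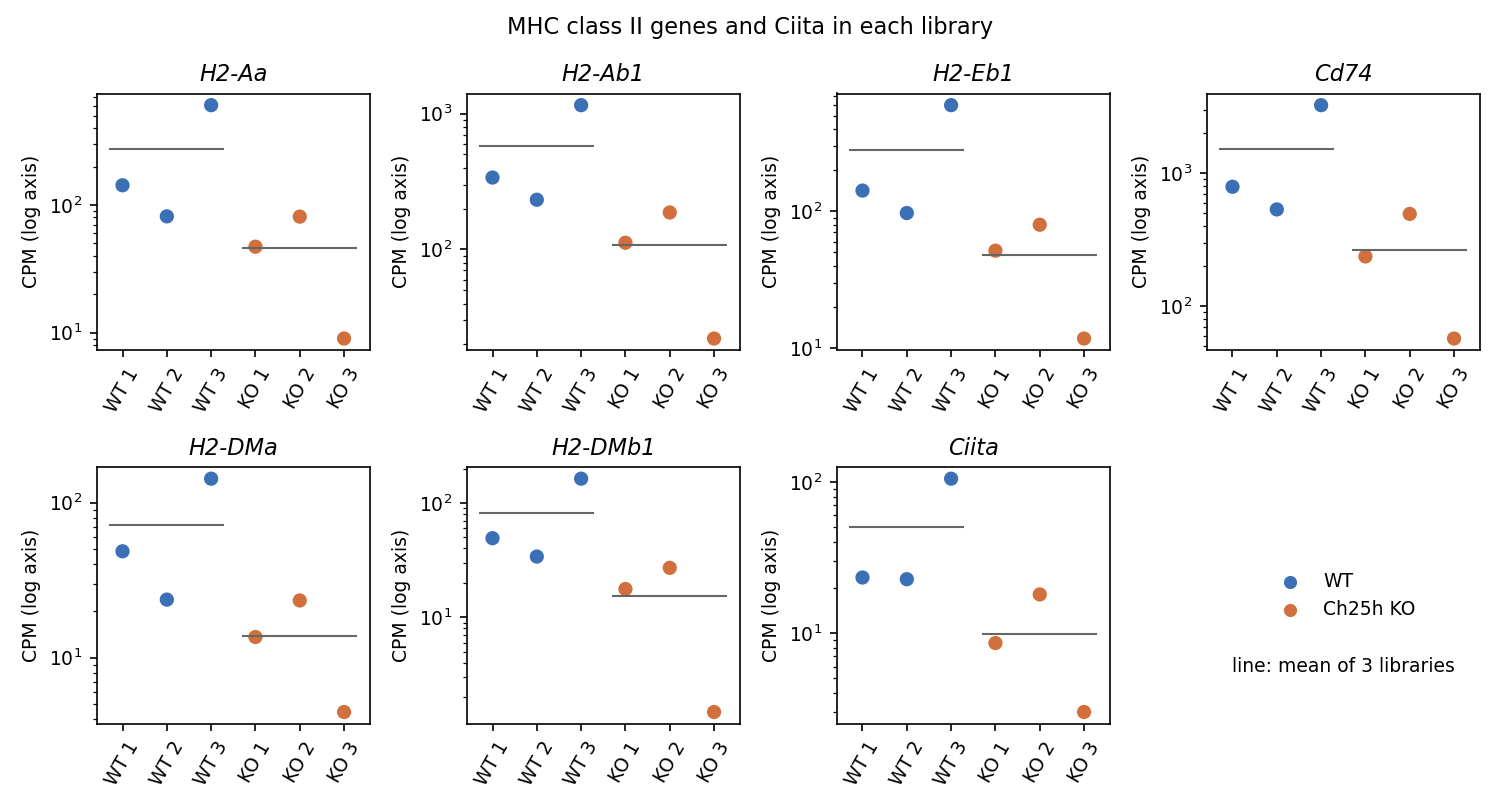
CPM on a log axis of the 6 class II genes and Ciita in each of the 6 libraries, with 1 point per library and a line at each group's mean of 3 libraries. In every panel WT library 3 is the highest point and Ch25h KO library 3 the lowest, and WT library 2 lies above Ch25h KO library 2 by 0.535% to 26.3%.

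Per kilobase of annotated exon the order of levels was Cd74, H2-Ab1, H2-Eb1, then H2-Aa and H2-DMb1, then H2-DMa and, lowest, Ciita. In WT library 1 these were 472, 132, 73.2, 37.5, 29.2, 14.1 and 2.44 CPM per kb. This order held in the other libraries except Ch25h KO library 3, where H2-DMa (1.29 CPM per kb) stood above H2-DMb1 (0.885 CPM per kb). H2-Aa and H2-DMb1 were nearly level in WT library 2, at 21.5 and 20.2 CPM per kb. Within a genotype the highest library exceeded the lowest by 4.63-fold to 7.44-fold in WT and by 5.24-fold to 18.2-fold in Ch25h KO, against a ratio of group means of 5.11 to 6.05. With group medians the ratio was 2.71 to 3.57.

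The values of WT and Ch25h KO did not overlap in 7 of the 7 genes, with the knockout lower, which held for 5.78% of all 11980 genes tested. Since this contrast chose the genes, nothing is read from that count. None of the 7 passed limma over all genes (0 of 7, against 0.00835% of all genes tested), although 7 of 7 had an unadjusted p under 0.05 and were lower, as had 454 of all 11980 genes. Nothing is read from these counts either, since the same contrast chose the genes. On recovered reads edgeR called 0 of the 7 (0% of all genes) and DESeq2 0 of the 7 (0.0918% of all genes, 0.0501% with the knockout lower). The median log2 fold change of the 7 was -2.50, beside -0.00 over all genes tested. Leaving out WT library 3 gave -1.68, leaving out Ch25h KO library 3 gave -1.62, and leaving out both gave -0.87. Without library 3 of both groups, the mean of the remaining WT libraries exceeded that of the remaining knockout libraries by 1.73-fold to 1.95-fold. Without the scaling factors the groups overlapped in H2-Aa, and after quantile normalization in H2-Aa and H2-DMa.

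The 6 class II genes kept step with Ciita from library to library. All 7 ranked the libraries in the same order: WT 3, WT 1, WT 2, Ch25h KO 2, Ch25h KO 1 and Ch25h KO 3. Besides these 7, 50 other genes had exactly this order, and together they made up 0.476% of the genes tested. Of the genes on the lists used here, Irf1 was the single one among those 50. Every WT library precedes every knockout library in this order. That is the contrast that chose the genes, so nothing is read from the share. The step from WT 2 to Ch25h KO 2 was within counting error for H2-Aa (81.6 and 81.2 CPM) and H2-DMa (23.7 and 23.4 CPM). So was the step from WT 1 to WT 2 in Ciita (23.3 and 22.7 CPM).

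Ratios to Ciita varied far less than the levels. While Ciita spanned 35.1-fold, the ratio of Cd74 to Ciita lay between 19.1 and 34.1, a 1.79-fold span. It was 34.1, 23.5 and 30.9 across the controls, against 27.6, 27.5 and 19.1 across the knockouts, with the groups overlapping. The ratio to Ciita spanned 2.04-fold for H2-Aa, 1.98-fold for H2-Ab1, 1.57-fold for H2-Eb1 and 2-fold for H2-DMa. H2-DMb1 departed most, at 1.5 to 2.11 in 5 libraries and at 0.496 in Ch25h KO library 3. Within the H2-DM pair, H2-DMb1 stood at 1.01 to 1.44 times H2-DMa in those 5 libraries and at 0.333 times in Ch25h KO library 3. The ratio of each gene to Ciita overlapped between the genotypes for 6 of 6 genes.

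**Figure D2:**
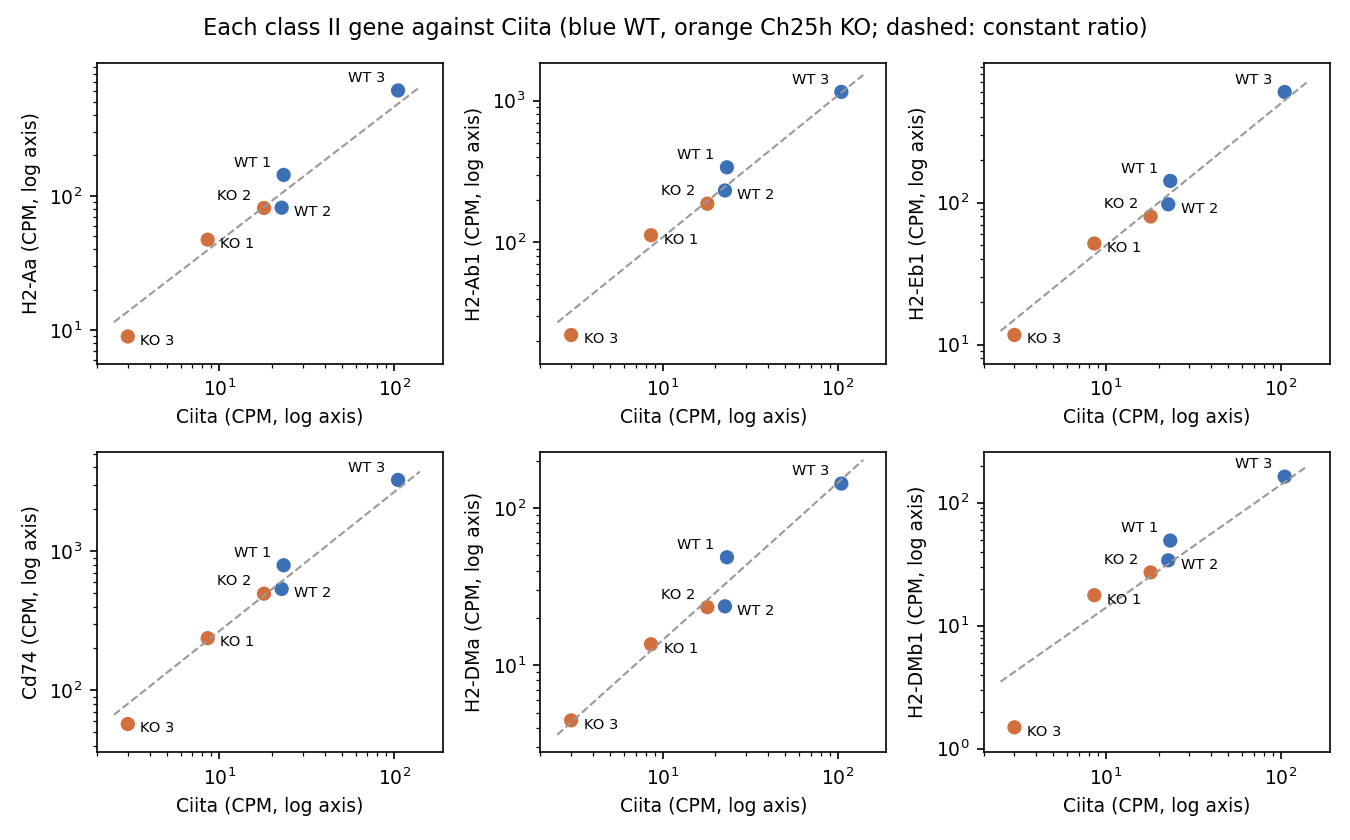
CPM of each class II gene against CPM of Ciita, both on log axes, with 1 point per library and a dashed line at the geometric mean of the ratio. The points run along the line over the 35.1-fold range of Ciita, and H2-DMb1 in Ch25h KO library 3 lies furthest below it.

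To set the genotype difference aside, each genotype's mean was subtracted from log2(CPM + 1) before genes were compared with Ciita. The points are the same 6 libraries, leave 4 degrees of freedom and share depth and cell make-up, so the correlations are descriptions. Pearson's r with Ciita was 0.98 for Cd74 and H2-Eb1, 0.97 for H2-Aa, 0.96 for H2-Ab1, 0.95 for H2-DMa and 0.93 for H2-DMb1. The median was 0.97, beside -0.05 over 10253 genes averaging 5 CPM or more. Among these genes 146, 1.42%, had an r as high as that of H2-DMb1 or higher. Without library 3 of both groups the median within genotypes was 0.77. The slope of each class II gene on Ciita, both on the log2 scale and within genotypes, lay between 0.96 for H2-DMa and 1.26 for H2-Aa.

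Several genes outside the class II family were as much like Ciita, and Cd74 ranked 7 by r over the 6 libraries as they are. By this measure the 8 closest outside the 7 genes were Arrdc4, Serping1, Gbp2, Apol10b, Ifi47, Dhx8, Steap4 and Irg1, each with r of 0.99 or above. Within genotypes 5 of them stayed in the first 8, and Gbp3 and C1ra entered it. Arrdc4, an arrestin-domain gene, was at 63.2, 63.7 and 152 CPM across the controls, against 43.2, 57.6 and 26 CPM across the knockouts. Serping1, which encodes the C1 inhibitor of complement, was at 344, 283 and 990 CPM across the controls, against 167, 265 and 76.1 CPM across the knockouts. Both had the same highest and lowest libraries as Ciita. Gbp2 and Ifi47 encode interferon-inducible GTPases, and Irg1 the enzyme that makes itaconate. Their ranges were narrower than those of class II, from 1.52-fold for the helicase gene Dhx8 to 17.6-fold for Apol10b. None of these named genes passed limma over all genes, where the smallest adjusted p among them was 0.836.

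**Figure D3:**
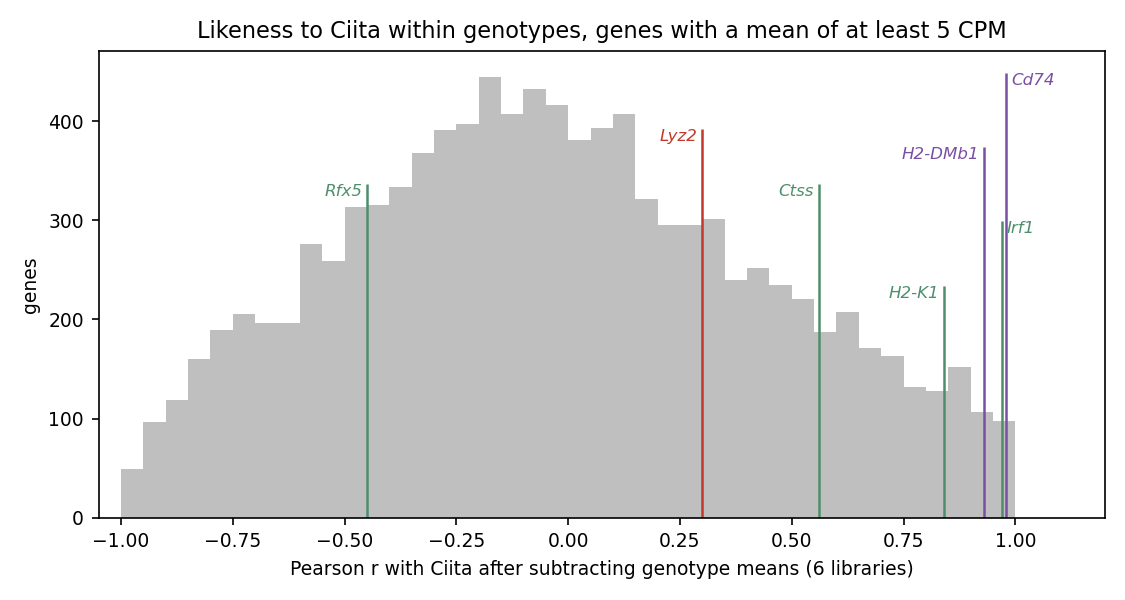
Histogram of Pearson's r with Ciita over 6 libraries after subtracting genotype means, for 10253 genes averaging 5 CPM or more, with lines at selected genes. Cd74 and H2-DMb1 lie at the right end at 0.98 and 0.93, near Irf1 at 0.97, while Rfx5 lies at -0.45 and Lyz2 at 0.30.

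The factors that act at class II promoters showed no such range. The list held 12 genes, of which 0 passed limma in either direction, and the median log2 fold change was -0.12. At an unadjusted p under 0.05, 1 was lower in the knockout, beside 454 of all 11980 genes tested. The mean log2 level was lower in the knockout for 10 of the 12, beside 6039 of all genes tested. In 3 of them, Crebbp, Kat2b and Smarca4, the groups did not overlap, with the knockout lower, which held for 5.78% of all genes tested. Rfx5, the DNA-binding subunit of the RFX complex, was at 15.1, 19 and 14.2 CPM across the controls, against 15.4, 9.87 and 11.6 CPM across the knockouts (limma, adjusted p = 0.966). WT library 3, highest in class II, was the lowest of the WT libraries in Rfx5. Its partners Rfxap and Rfxank spanned 1.31-fold and 1.52-fold over all libraries. Kat2b and Crebbp, acetyltransferases that work with CIITA, had means of 19.5 ± 2.52 and 66.8 ± 9.59 CPM in controls against 13.2 ± 3.07 and 50.5 ± 9.21 CPM in knockouts (SD, n = 3; limma, adjusted p = 0.892 and 0.916). Within genotypes r with Ciita was -0.32 for Kat2b, -0.52 for Crebbp, -0.45 for Rfx5 and 0.43 for Rfxank, the highest of the list.

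Among genes that switch Ciita on or off, Irf1 followed it closely from library to library. Of 11 genes 0 passed limma, 3 had an unadjusted p under 0.05, all lower in Ch25h KO (454 of all 11980 genes had this), and the median log2 fold change was -0.43. Irf1, a transcription factor that acts on the interferon-responsive promoter of Ciita, was at 329, 303 and 657 CPM across the controls, against 191, 225 and 88.4 CPM across the knockouts. Its groups did not overlap, with the knockout lower, which held for 1 of the 11 genes and for 5.78% of all genes tested. The log2 fold change of Irf1 was -1.36 (SE 0.37; limma, adjusted p = 0.836). Its r with Ciita within genotypes was 0.97, and its slope on Ciita was 0.54, where class II genes had 0.96 or more. The feedback inhibitor Socs1 had a mean of 57.6 ± 31.4 CPM in controls against 26.1 ± 7.81 CPM in knockouts, and Socs3 268 ± 182 and 158 ± 47.3 CPM (SD, n = 3; limma, adjusted p = 0.836 and 0.973). Within genotypes r with Ciita was 0.82 for Socs1 and 0.62 for Socs3. The receptor chains Ifngr1 and Ifngr2 spanned 1.23-fold and 1.3-fold over the 6 libraries, with r of 0.43 and -0.52.

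Genes that supply peptide or tune the pathway had smaller fold changes than the class II genes, which were chosen by this contrast. Of 14 listed genes 12 had values and 10 a mean of at least 1 CPM. Limma called 0 of these 10, beside 1 of all 11980 genes tested. At an unadjusted p under 0.05 there were 0, beside 194 higher and 454 lower over all genes. The median log2 fold change of the 10 was -0.27. Lgmn, an endosomal protease, had a mean of 474 ± 54.8 CPM in controls against 406 ± 29.3 CPM in knockouts (SD, n = 3; limma, adjusted p = 0.973). Over its 1.4-fold range it still had an r of 0.95 with Ciita within genotypes. Sppl2a, which clears the last fragment of the invariant chain, averaged 59.7 ± 9.05 and 49.6 ± 7.46 CPM, the protease Ctsd 1851 ± 281 and 1532 ± 282 CPM, and March8, a ubiquitin ligase of class II, 65.4 ± 21 and 50.8 ± 10.3 CPM (SD, n = 3; limma, adjusted p = 0.973 for each). Ctss, the invariant-chain protease of macrophages and dendritic cells, was at 33.1, 2.26 and 31.3 CPM across the controls, against 5.18, 20.4 and 6.23 CPM across the knockouts. It was lowest in WT library 2, unlike any of the class II genes. Ctsl, its counterpart in other cells, held between 451 and 548 CPM.

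H2-DMb2 and H2-Oa had patterns of their own. H2-DMb2 was at 0.723, 0.858 and 7.58 CPM across the controls, against 0.0805, 5.29 and 0.0252 CPM across the knockouts (limma, adjusted p = 0.973). It was high in WT library 3 and Ch25h KO library 2, and near the worth of 1 read in the lowest library. H2-Oa, a chain of the H2-DM inhibitor that B cells make, was listed at 0, 0 and 0.259 CPM across the controls, against 0.295, 2.46 and 0 CPM across the knockouts. Its high library was Ch25h KO library 2. Exons of H2-Oa overlap those of BC051537 on the other strand.

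Of the 3 costimulatory genes tested, out of 8 listed, limma called 0, and the median log2 fold change was -0.01. At an unadjusted p under 0.05, 1 was higher and 1 lower, beside 194 higher and 454 lower of all 11980 genes. Cd40, a receptor for T cell help, had a mean of 109 ± 19.6 CPM in controls against 153 ± 16 CPM in knockouts, while the PD-L1 gene Cd274 had means of 64.8 ± 47.8 and 20.9 ± 10.8 CPM (SD, n = 3; limma, adjusted p = 0.836 for both). Of 11 class I and peptide loading genes, limma called 0, and 6 had an unadjusted p under 0.05, all lower in Ch25h KO (454 of 11980 over all genes). Their median log2 fold change was -0.66, and no gene of the list lay as low as any of the class II genes. Since this contrast chose the class II genes, nothing is read from that comparison. Within genotypes r with Ciita ran from 0.59 for Erap1 to 0.98 for Tap1 over the 11 class I and peptide loading genes. It was 0.97 for Nlrc5, Tap2 and Tapbp, where the 6 class II genes ran from 0.93 to 0.98. Nlrc5, the class I relative of CIITA, was at 71.2, 78.2 and 123 CPM across the controls, against 52.7, 57.1 and 33.4 CPM across the knockouts, and the peptide loading gene Tapbp averaged 799 ± 179 and 535 ± 85.9 CPM (SD, n = 3; limma, adjusted p = 0.836 for both). On these 5 lists edgeR and DESeq2 also called 0 genes.

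**Figure D4:**
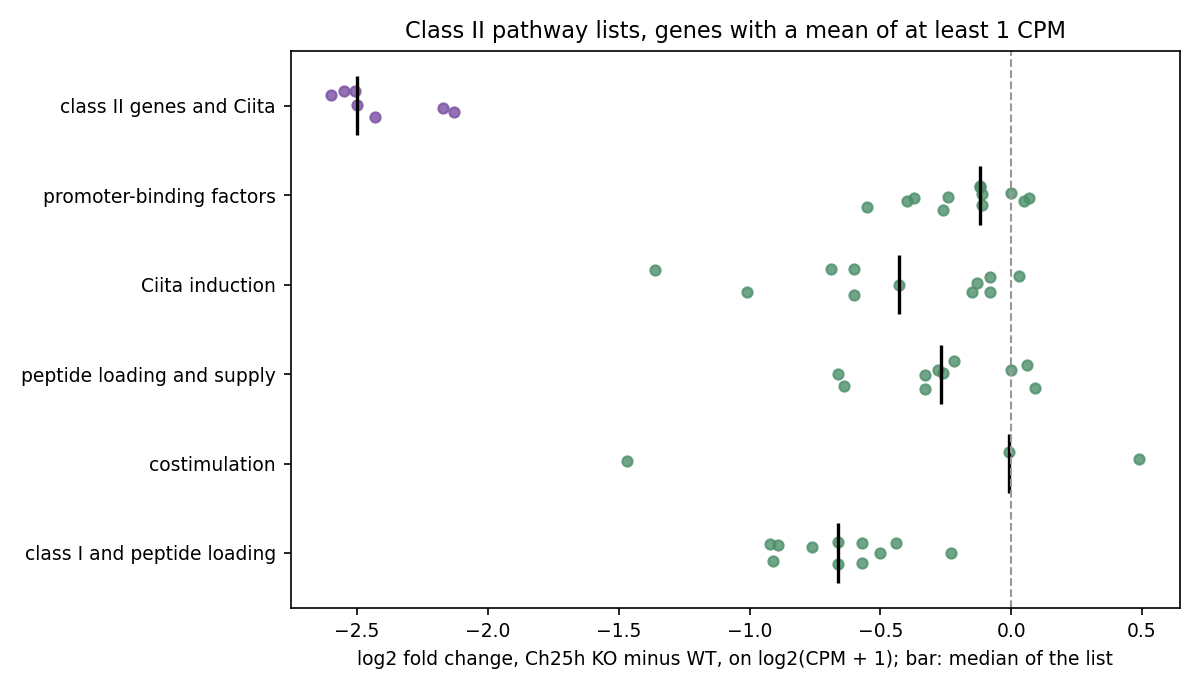
Log2 fold change, Ch25h KO minus WT on log2(CPM + 1), of each gene of the class II pathway lists averaging 1 CPM or more, with a bar at the median of each list. The 7 class II genes lie between -2.60 and -2.13, the class I genes between -0.92 and -0.23, and the promoter-binding factors around -0.12.

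Class II genes are also the signature of macrophages, dendritic cells and B cells, so their markers are given by library. The 15 macrophage and monocyte markers summed to 457, 103 and 286 CPM across the controls, against 105, 256 and 346 CPM across the knockouts. The groups overlapped in this sum, and its order was not that of class II. By gene, 12 of the 15 markers had a lower mean log2 level in the knockout and 3 a higher one. Over all 11980 genes tested, 6039 were lower and 5941 higher. The median log2 fold change of the 15 was -0.80 (from -1.18 for C1qb to 0.92 for Ptprc). Limma called 0 of them, beside 1 of all genes tested. At an unadjusted p under 0.05 there were 0, beside 454 lower and 194 higher over all genes. The groups overlapped in each of the 15. These markers come from the same 6 libraries and are not separate observations. Most lay in the direction of class II, and their part in its difference was not tested. In Ch25h KO library 3, 200 CPM of the sum were from Fcer1g alone, a gene singled out after its values were seen. Ptprc, which encodes CD45, was listed at 3.13, 0 and 0.994 CPM across the controls, against 0, 19.7 and 1.69 CPM across the knockouts. In WT library 2 and Ch25h KO library 1, where Ptprc was at 0, Cd74 stood at 535 and 237 CPM. In each of these libraries 2 of the 15 markers were at 0. Others were present there, such as Lyz2 at 7.51 and 9.93 CPM and Cd68 at 10.7 and 18.9 CPM. Csf1r, a receptor that defines macrophages, was at 14.7, 1.57 and 8.4 CPM across the controls, against 0, 6.71 and 3.5 CPM across the knockouts, and Cd68 was at 10.7 to 30.8 CPM in all 6.

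The ratio of class II to macrophage transcripts was not constant. Cd74 stood at 5.08, 71.2 and 36.8 times Lyz2 across the controls, against 23.8, 8.43 and 1.69 times Lyz2 across the knockouts. Lyz2, a macrophage lysozyme gene singled out after its values were seen, was thus highest in WT library 1 (156 CPM) and lowest in WT library 2 (7.51 CPM), whereas Cd74 in these libraries differed by less than 1.5-fold. Against C1qb, Cd74 stood at 12.9, 167 and 133 times in the controls and at 67.9, 39.6 and 6.85 times in the knockouts. Against Cd68 it stood at 25.7, 49.8 and 206 times in the controls and at 12.5, 22.5 and 3.8 times in the knockouts. The genotypes overlapped in the ratios to Lyz2 and C1qb and did not overlap in the ratio to Cd68. Over the markers of this list averaging 5 CPM or more, r with Ciita within genotypes ran from -0.47 for Fcer1g to 0.84 for Cd14, with 0.56 for Laptm5, 0.30 for Lyz2, 0.22 for Csf1r and 0.12 for Cd68. How much of the class II RNA came from macrophages was not tested.

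B cell transcripts stood out in 1 library. Of 6 listed markers 2 had values: Cd79a was at 13.1 CPM and Cd79b at 14.4 CPM in Ch25h KO library 2 and both at 0.438 CPM or less in the other 5. The same library held the highest Ptprc and H2-Oa and, among the knockouts, the highest class II level. Without it the median log2 fold change of the 7 genes was -3.14. The part of B cells in its class II RNA was not tested. Of 10 dendritic cell markers 6 had values, which summed to 512 to 845 CPM in WT and 372 to 516 CPM in Ch25h KO. Most of this sum was from Irf8 (290 to 783 CPM), a gene that limma did not call (adjusted p = 0.836). By gene, 5 averaged 1 CPM or more, of which 3 had a higher mean log2 level in the knockout and 2 a lower one. Their median log2 fold change was 0.08. Over all 11980 genes tested, 5941 were higher and 6039 lower. Xcr1, a receptor of cross-presenting dendritic cells, was at 0.353 CPM or less in all 6 libraries.

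Markers of endothelium and of the tumour did not order the libraries as class II did. The 11 lymphatic markers with values summed to 9617, 12159 and 10950 CPM across the controls, against 8677, 11467 and 11201 CPM across the knockouts. Blood endothelial markers summed to 1528 to 2539 CPM in WT and to 1118 to 1346 CPM in Ch25h KO, nearly all from Plvap, so that the groups did not overlap, with WT library 3 the highest. Emcn on the same list ran the other way, lowest in WT library 3 (14.3 CPM) and highest in Ch25h KO library 3 (42.5 CPM), with an r of -0.99 with Ciita within genotypes. Fibroblast markers summed to 66.8 to 352 CPM and 76.6 to 200 CPM, and melanoma markers to 40.8 to 195 CPM and 99.6 to 247 CPM. By gene, 4 of 5 fibroblast markers had a lower mean log2 level in the knockout (median log2 fold change -0.91), and 5 of 6 melanoma markers a higher one (median 0.74). Over all 11980 genes tested, 6039 were lower and 5941 higher. Limma called 0 genes on these 7 marker lists, and their part in the class II difference was not tested.

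**Figure D5:**
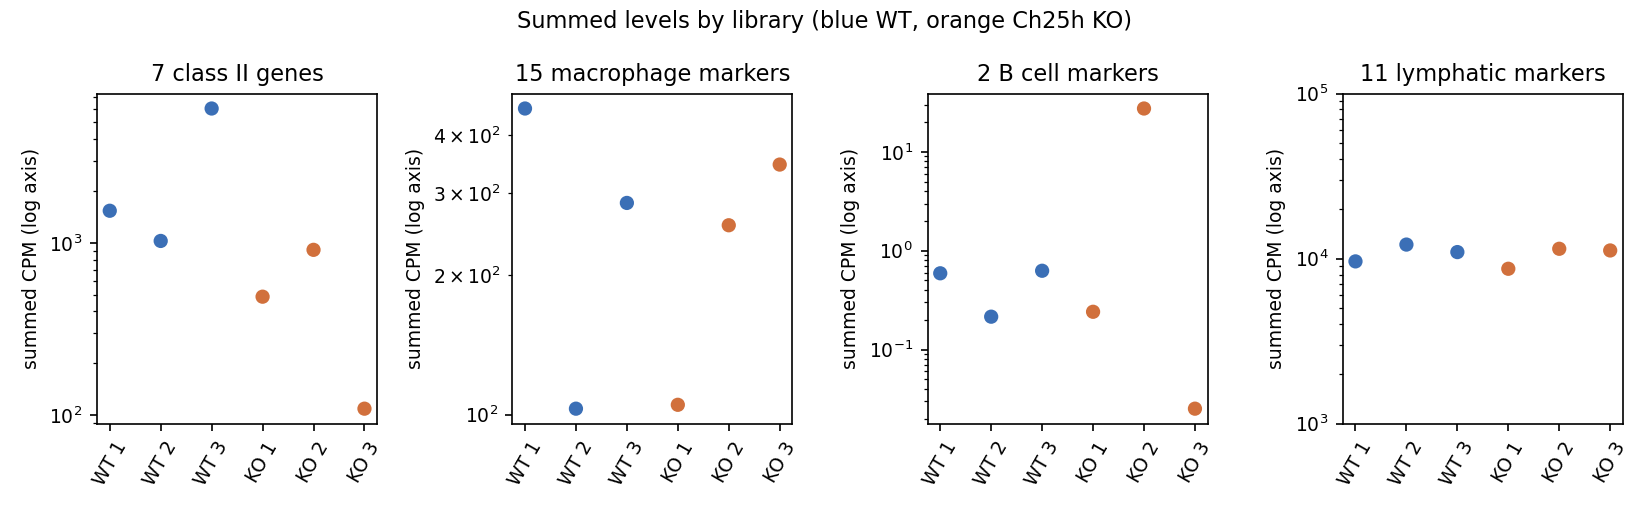
Summed CPM on log axes of the 7 class II genes, 15 macrophage and monocyte markers, 2 B cell markers and 11 lymphatic markers in each of the 6 libraries, with 1 point per library. Class II runs from 6025 CPM in WT library 3 to 109 CPM in Ch25h KO library 3, macrophage markers are lowest in WT library 2 and Ch25h KO library 1, and B cell markers are high in Ch25h KO library 2.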

How the data were processed

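RNA of sorted lymphatic endothelial cells was measured in 6 libraries, 3 per genotype, grouped by the genotype labels. The deposited table holds a normalized signal, CPM, for 13454 genes. The submitters' processing notes list mm10, edgeR 3.26.8, HTSeq 0.9.1 and STAR 2.7.0; the sources used here give no roles, annotation or filters. Every value was a whole multiple of the worth of 1 read (100% within 0.01 of a read), and the recovered reads gave scaling factors by edgeR's TMM method equal to those implied by the deposited columns, 0.967 to 1.02. SMART-Seq reads carry no molecular identifiers, so Poisson intervals cover counting error only. A count of 0 allows up to 3 reads, 0.0648 to 0.0805 CPM.

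The 11980 genes averaging 1 CPM or more were fitted with limma 3.58.1 (R 4.3.3) on log2(CPM + 1), group as the only term, a trended variance prior, Benjamini-Hochberg adjustment over all of them and a threshold of 0.05. Fold changes understate low genes. The tests were checked on simulated data. Alternatives were other pseudocounts, filters, scalings and priors, library weights, a replicate block, leaving out libraries, and edgeR 4.0.16 and DESeq2 1.42.0 on the recovered reads. The 7 genes and all lists were chosen with earlier results of these data known. Named genes are the 7 and Ch25h, the up to 4 genes of smallest p of the promoter-binding, induction and supply lists (others of these lists may be named), the 2 of smallest p of the costimulation and class I lists, lineage markers, and the 8 genes most like Ciita with a mean of at least 5 CPM that are not predicted genes. Apart from these, genes were named after their values were seen. Of the genes this rule names, 1 is not reported here. Older symbols were matched through RefSeq synonyms. Exon lengths and positions are from GENCODE M21. No 2 libraries agreed within sampling noise.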

Additional observations from a re-analysis of the deposited data

How the results depend on the processing

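The median log2 fold change of the 7 class II genes kept its sign under all 16 alternatives and lay between -3.14 and -1.62 when 1 library was left out. It was -0.87 without library 3 of both groups, where fewer samples remain. Each gene behaved alike, with 15 of 16 alternatives within the spread of the libraries. The median correlation with Ciita within genotypes ran from 0.95 to 0.99 when 1 library was left out and was 0.77 without library 3 of both groups. Limma called 1 gene, Ch25h, over all genes. The count was 0 with a pseudocount of 0.25 and 0 with edgeR, 11 with DESeq2 and 0 to 2 when 1 library was left out; the cause was not tested. It was 0 without WT library 1 and 2 without WT library 2. No gene of the other class II pathway lists was called under any of the 18 alternatives. With the library number as a replicate block 1 gene was called, 850 instead of 648 genes had an unadjusted p under 0.05, and the median of the 7 genes was -2.50. Deviations of same-numbered libraries from their genotype means correlated at 0.24, -0.06 and -0.10. The main fit did not take the numbers as pairs, and whether they mark a shared batch was not tested. Of the 6 libraries, the 2 numbered 1 correlated best with their own number. Chi-square per degree of freedom between libraries was smallest for WT 2 with Ch25h KO 2 (55.9) and WT 1 with Ch25h KO 1 (58.2) and highest for WT 3 with Ch25h KO 3 (231). The smallest within a genotype was 65.7, for Ch25h KO 1 with Ch25h KO 2. In a scaling alternative chosen after seeing the data, 6 of 7 genes did not overlap without the scaling factors and 5 of 7 after quantile normalization. Values of a few reads, as for H2-DMb2 and H2-Oa, are limited by depth.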
